A study of Mus musculus with 6 samples.

Results

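The cholesterol genes described here are 8: the synthesis enzymes Hmgcs1, Idi1, Fdps, Sqle, Lss, Cyp51 and Dhcr7, and Insig1, a regulator of the pathway. They were taken by gene symbol with all 18 of their probe sets, out of 18193 mouse genes with a probe set named for 1 gene. For each gene the probe set with the highest mean level leads. RNA was measured on 6 Affymetrix mouse arrays, 1 pool of sensory neurons from dorsal root ganglia per array. The 2 L6-R pools and the 2 L3-S pools each held 20 neurons labelled with DiI, a membrane dye that travels back along the axon to the cell body, and the 2 L3-B pools each held 50 control neurons. Within each code, 1 pool was of big neurons and 1 of medium to small neurons. Code, dye and number of neurons thus change together in every comparison with L3-B, and their parts cannot be told apart. What the codes stand for, where the dye was applied, and the strain, age, sex and number of mice are unknown here. A pool is therefore not known to be a separate animal, and no p-value is known to cover the spread between mice. With 1 pool for each code and size class, the spread behind the p-values mixes differences between pools with size differences that vary by code. The number of arrays limits the precision of every value.

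Cells build cholesterol from acetyl-CoA through mevalonate. Hmgcs1 makes HMG-CoA, Idi1 and Fdps assemble the isoprenoid farnesyl diphosphate, Sqle and Lss turn squalene into lanosterol, and Cyp51 and Dhcr7 carry lanosterol towards cholesterol. The transcription factor SREBP-2 drives these genes when sterols are low, while Insig1 holds the SREBP escort protein Scap in the endoplasmic reticulum when sterols are high; Insig1 is itself a target of SREBPs. Neurons also take up cholesterol that glia export on ApoE particles, and long axons need it for membrane and for transport vesicles.

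RefSeq promoter windows, from 250 bases before to 50 bases after the start, were at hand for 6 of the 8 genes in 8 windows on build GRCm38.p6. The sterol regulatory element, searched as TCACNCCAC on both strands, was found in 1 of the 8 windows, that of Hmgcs1, against 1.24% of 32851 windows of the same length. The NF-Y box CCAAT was found in 6 of the 8 windows, against 37.4% of all windows; the 2 without it are among the 3 windows of Dhcr7. The Sp1 box GGGCGG was found in 7 of the 8, against 35.7% of all windows. NF-Y and Sp1 are factors known to act beside SREBPs. A match to these letters is a description and shows no binding. The 250 bases before the start are shown for the first enzyme (chr13:119690101-119690350, plus strand), for an enzyme of the isoprenoid step (chr13:8885356-8885605, plus strand) and for the regulator (chr5:28071162-28071411, plus strand), because Hmgcs1 alone held the element, Idi1 was closest to the mean of the others over the arrays (r = 0.97), and Insig1 went against it (r = -0.40). Capitals mark the sterol regulatory element and the NF-Y box, which reads ATTGG on the other strand.
Hmgcs1: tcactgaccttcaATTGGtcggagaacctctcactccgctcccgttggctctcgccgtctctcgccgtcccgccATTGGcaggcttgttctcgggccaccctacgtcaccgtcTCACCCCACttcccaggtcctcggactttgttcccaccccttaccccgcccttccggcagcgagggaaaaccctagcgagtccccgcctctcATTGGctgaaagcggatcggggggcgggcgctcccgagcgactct
Idi1: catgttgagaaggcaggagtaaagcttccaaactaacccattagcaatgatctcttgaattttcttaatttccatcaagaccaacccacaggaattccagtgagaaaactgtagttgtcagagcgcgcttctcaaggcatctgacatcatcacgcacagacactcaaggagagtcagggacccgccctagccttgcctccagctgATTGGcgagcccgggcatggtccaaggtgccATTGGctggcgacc
Insig1: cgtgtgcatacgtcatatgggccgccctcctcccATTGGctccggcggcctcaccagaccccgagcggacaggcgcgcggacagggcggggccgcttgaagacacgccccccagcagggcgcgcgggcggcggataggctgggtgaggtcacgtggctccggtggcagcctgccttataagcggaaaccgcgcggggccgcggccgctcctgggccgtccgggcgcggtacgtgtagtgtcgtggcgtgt
In Hmgcs1 the sterol regulatory element lay from 137 to 129 bases before the start. The Idi1 stretch held 2 NF-Y boxes, and the Insig1 stretch held 1.

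Each value is the authors' linear signal intensity, and each array's trimmed mean was 150. Signals under 32 lie near background and made up 55.3% to 59.5% of the probe sets of an array. All 12 sensory neuron markers had a probe set above 32 on at least 1 array, with summed signals of 67569 to 80590 in L6-R, 58736 to 67942 in L3-S and 63759 to 66445 in L3-B. Of 14 listed markers of satellite glia and Schwann cells, 11 had a probe set, and their sums were 14866 to 20467 in L6-R, 12638 to 17097 in L3-S and 10240 to 12007 in L3-B. Among these 11, only Mag, a myelin protein of glia, was under 32 on every array. Over the 6 arrays Pmp22 ranged from 2827 to 4305, Mbp from 332 to 2857, Apoe from 540 to 5224 and Fabp7 from 250 to 1766. S100b made the largest part of both L3-B sums, with a signal of 6832 for the big pool and 5546 for the other. By code means of log2 values, 8 of the 9 glial markers tested were higher in L6-R than in L3-B, and 1, S100b, was lower. The sums of 10 markers of connective tissue and vessels were 1105 to 1948, 1477 to 1567 and 347 to 457 in L6-R, L3-S and L3-B, with Col1a1, Pecam1 and Cdh5 under 32 everywhere. The sums of 9 blood and immune markers were 235 to 391, 130 to 186 and 139 to 174 in the same order, with Ptprc, Cd68, Aif1, C1qa, Cd3e and Hba-a1 under 32 everywhere. The ratio of 3' to 5' signal of the Actb control, which grows as RNA or its copies shorten, was 8.31 and 8.42 in L6-R, 5.42 and 12.0 in L3-S, and 13.9 and 3.73 in L3-B, big pool first. The pool of big L3-B neurons thus stood at the top of that ratio and the pool of medium to small L3-B neurons at the bottom. The differences of Fdps, Sqle, Idi1 and Dhcr7 against L3-B are given with and without each of these pools. With 1 pool left out, its code rests on 1 array, which is assumed to vary like the arrays of the other codes, from which the 1 residual degree of freedom comes.

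None of the 8 genes passed the threshold between codes or size classes. For Fdps, Sqle, Idi1 and Dhcr7 both L6-R arrays read above every L3-S and L3-B array. The share of all genes with this pattern was not counted, so whether it is unusual is unknown. Against 1 code at a time, L6-R lay wholly above L3-B for 25.8% of all genes tested and wholly above L3-S for 25.3%. Differences are in log2(signal + 32), from a limma fit of code and size class to 9097 genes, with p-values adjusted over all of them by the Benjamini-Hochberg method and called under 0.05. In L6-R against L3-B, 0 of 8 passed, where 7.51% of all genes tested did (4.66% higher and 2.85% lower). In L6-R against L3-S, 0 of 8 passed, where 3.18% of genes did (1.26% higher and 1.91% lower). In L3-S against L3-B, 0 of 8 passed, where 1.02% of genes did (0.923% higher and 0.0989% lower), and between big and medium to small neurons 0 of 8 and 0% of genes passed. At an unadjusted p under 0.05, limma gave 3 of the 8 in L6-R against L3-B (Fdps, Sqle and Idi1), beside 21.6% of all genes, and 0 of the 8 in the other 3 comparisons, beside 15.6%, 10.2% and 3.52% of genes for L6-R against L3-S, L3-S against L3-B and size. The median difference of the 8 was 0.45 in L6-R against L3-B (all genes 0.02), 0.17 in L6-R against L3-S (all genes -0.01), 0.21 in L3-S against L3-B (all genes 0.03) and -0.05 between size classes (all genes -0.02). The 3 comparisons of codes share arrays, so their values are given side by side and are not independent.

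**Figure D1:**
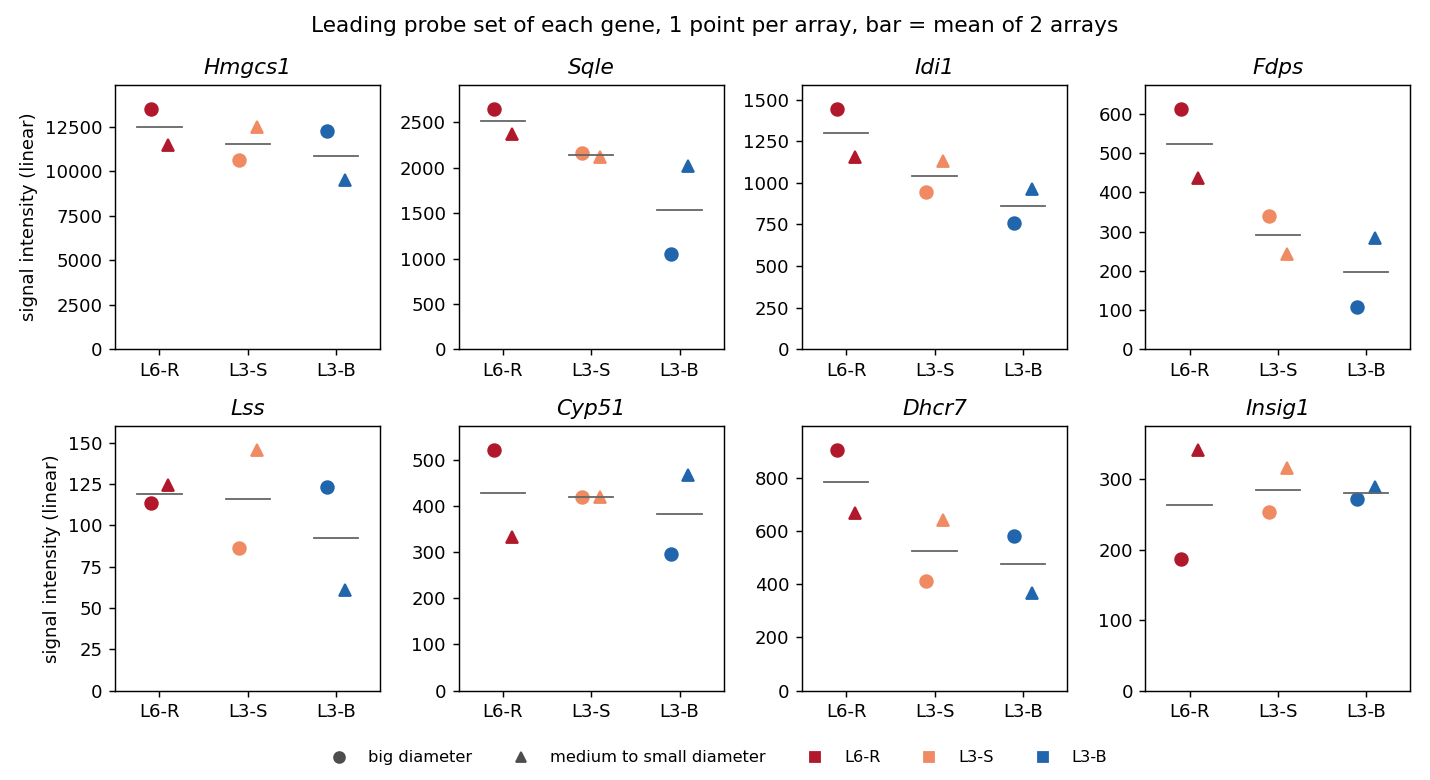
Linear signal intensity (y axis, from 0) of the leading probe set of each of the 8 genes on each of the 6 arrays, by title code (x axis); circles are big and triangles medium to small neurons, and bars are means of 2 arrays. Sqle, Idi1, Fdps and Dhcr7 have both L6-R points above all 4 other points, and the Fdps point of big L3-B neurons is lowest at 108. The share of all genes with both L6-R points highest was not counted.

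Hmgcs1 encodes the cytosolic HMG-CoA synthase at the entry to mevalonate. Its leading probe set (1433443_a_at) read 13491 and 11489 in big and medium to small L6-R neurons, 10617 and 12453 in L3-S, and 12268 and 9485 in L3-B. The 3 codes overlapped, and the highest array was 1.42 times the lowest, the narrowest range of the 8 genes. The fitted difference was 0.21 ± 0.24 (SE; 95% interval -0.35 to 0.76) in L6-R against L3-B and 0.11 (-0.44 to 0.67) in L6-R against L3-S, which leaves room for a change of either sign. It was 0.09 (-0.46 to 0.64) in L3-S against L3-B. In 2 of its other probe sets both L6-R arrays lay above the other 4: 1433445_x_at read 4881 and 4800 in L6-R, 3303 and 3875 in L3-S, and 4227 and 3605 in L3-B. The other of these, 1433444_at, read 4028 and 3579 in L6-R, 2800 and 3293 in L3-S, and 3223 and 2884 in L3-B. Neither passed when every probe set was tested, with limma adjusted p of 0.598 and 0.590 in L6-R against L3-B. A further one, 1433446_at, was highest, at 961, in medium to small L3-B neurons. The remaining probe set, 1441536_at, stayed between 24.4 and 47.0 and is near background.

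Idi1 encodes isopentenyl-diphosphate isomerase, which readies the building blocks that Fdps joins. It read 1443 and 1153 in L6-R, 945 and 1134 in L3-S, and 759 and 961 in L3-B. Both L6-R arrays lay above the other 4. The difference was 0.58 ± 0.25 (SE; 95% interval 0.01 to 1.14; limma adjusted p = 0.223) in L6-R against L3-B and 0.31 ± 0.25 (-0.26 to 0.88; adjusted p = 0.609) in L6-R against L3-S. The first became 0.40 without the big and 0.76 without the medium to small L3-B pool. The second became 0.0057 without the big and 0.61 without the medium to small L6-R pool. The difference in L3-S against L3-B was 0.27 (-0.30 to 0.83), with 0.09 without the big and 0.45 without the medium to small L3-B pool. Its second probe set (1423804_a_at) read 976 and 780 in L6-R, 672 and 926 in L3-S, and 720 and 642 in L3-B, where L6-R was again above L3-B but overlapped L3-S.

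Fdps encodes farnesyl diphosphate synthase, whose product feeds both squalene and protein prenylation. It had the widest range of the 8 genes, with the highest array 5.65 times the lowest, and 96.8% of genes tested had a narrower one. The signals were 612 and 436 in L6-R, 339 and 244 in L3-S, and 108 and 284 in L3-B. Means were 524 ± 124 in L6-R, 291 ± 67.3 in L3-S and 196 ± 124 in L3-B (SD, n = 2 each). Both L6-R arrays exceeded all others, while 1 L3-B array lay between the L3-S pair and the other below it. The difference in L6-R against L3-B was 1.38 ± 0.39 (SE; 95% interval 0.50 to 2.27), a fold of 2.61 (1.41 to 4.81) on the log2(signal + 32) scale, with a limma adjusted p of 0.0718. It was 2.20 among big and 0.57 among medium to small neurons. Without the medium to small L3-B pool it became 2.19 (adjusted p = 0.00159, where 7.52% of all genes passed), and without the big L3-B pool 0.57 (adjusted p = 0.233). In L6-R against L3-S the difference was 0.78 ± 0.39 (-0.10 to 1.66; adjusted p = 0.383), at 0.80 in big and 0.76 in medium to small neurons, and it became 0.36 without the big and 1.20 without the medium to small L6-R pool. In L3-S against L3-B it was 0.60 (-0.28 to 1.49; adjusted p = 0.717), at 1.40 in big and -0.20 in medium to small neurons. Without the big L3-B pool that value was -0.21, and without the medium to small one 1.41 (adjusted p = 0.0495). The lowest Fdps signal came from the big L3-B pool, the array with the highest Actb ratio. The second Fdps probe set (1438150_at) was under 32 on all 6 arrays and gives no second reading.

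Sqle encodes squalene epoxidase, a rate-limiting step after the branch to sterols. Its 1 probe set read 2645 and 2371 in L6-R, 2164 and 2114 in L3-S, and 1044 and 2015 in L3-B. All 4 DiI arrays were above both control arrays, and L6-R was above L3-S. The difference was 0.77 ± 0.30 (SE; 95% interval 0.09 to 1.45; limma adjusted p = 0.176) in L6-R against L3-B, 0.55 (-0.13 to 1.23; adjusted p = 0.636) in L3-S against L3-B, and 0.22 (-0.45 to 0.90) in L6-R against L3-S. Most of the gap to the controls lay with the big neurons: L6-R less L3-B was 1.31 in big and 0.23 in medium to small neurons, and L3-S less L3-B was 1.03 and 0.07. In the fit without the medium to small L3-B pool the first of these comparisons passed, at 1.28 (adjusted p = 0.0222), and without the big L3-B pool it was 0.26. L3-S against L3-B became 1.06 (adjusted p = 0.114) and 0.037 in the same fits.

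Lss encodes lanosterol synthase, which closes the ring system of sterols. Its leading probe set (1426913_at) read 114 and 124 in L6-R, 86.4 and 145 in L3-S, and 123 and 61.2 in L3-B, with all codes overlapping. The difference was 0.33 (95% interval -0.40 to 1.05) in L6-R against L3-B, 0.06 (-0.66 to 0.78) in L6-R against L3-S and 0.27 (-0.45 to 0.99) in L3-S against L3-B. A further probe set (1420013_s_at) read 89.1 and 117 in L6-R, 117 and 83.4 in L3-S, and 70.7 and 79.1 in L3-B, and the remaining one (1420014_at) was under 32 on all 6 arrays.

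Cyp51 encodes lanosterol 14-alpha demethylase. It read 520 and 333 in L6-R, 419 and 418 in L3-S, and 296 and 467 in L3-B, so that L3-S lay inside the range of both other codes. The differences were 0.15 (95% interval -0.53 to 0.83) in L6-R against L3-B, -0.01 (-0.69 to 0.68) in L6-R against L3-S and 0.16 (-0.53 to 0.84) in L3-S against L3-B. A second probe set (1422533_at) read 209 and 212 in L6-R, 150 and 154 in L3-S, and 203 and 147 in L3-B, placing L6-R above L3-S by 0.40 (adjusted p = 0.559 among all probe sets tested). The remaining probe set, 1422534_at, stayed between 25.1 and 35.5.

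Dhcr7 encodes the reductase of the last step to cholesterol. It read 902 and 667 in L6-R, 410 and 641 in L3-S, and 582 and 366 in L3-B. Both L6-R arrays were the highest, while L3-S and L3-B overlapped. The difference was 0.71 ± 0.31 (SE; 95% interval -0.01 to 1.42; limma adjusted p = 0.235) in L6-R against L3-B, at 0.61 in big and 0.81 in medium to small neurons, and became 1.07 without the big and 0.35 without the medium to small L3-B pool. It was 0.57 ± 0.31 (-0.15 to 1.28; adjusted p = 0.434) in L6-R against L3-S, at 1.08 in big and 0.06 in medium to small neurons, and became 0.0042 without the big and 1.13 without the medium to small L3-S pool. For L3-S against L3-B the value was 0.14 (-0.57 to 0.86), with 0.50 without the big and -0.22 without the medium to small L3-B pool.

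Insig1 read 186 and 341 in L6-R, 254 and 317 in L3-S, and 272 and 289 in L3-B. The lowest and the highest of its 6 arrays were both L6-R arrays. Its differences were -0.13 (95% interval -0.70 to 0.44) in L6-R against L3-B, -0.15 (-0.71 to 0.42) in L6-R against L3-S and 0.01 (-0.55 to 0.58) in L3-S against L3-B. It was the only one of the 8 with a negative fitted value in L6-R against L3-B.

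**Figure D2:**
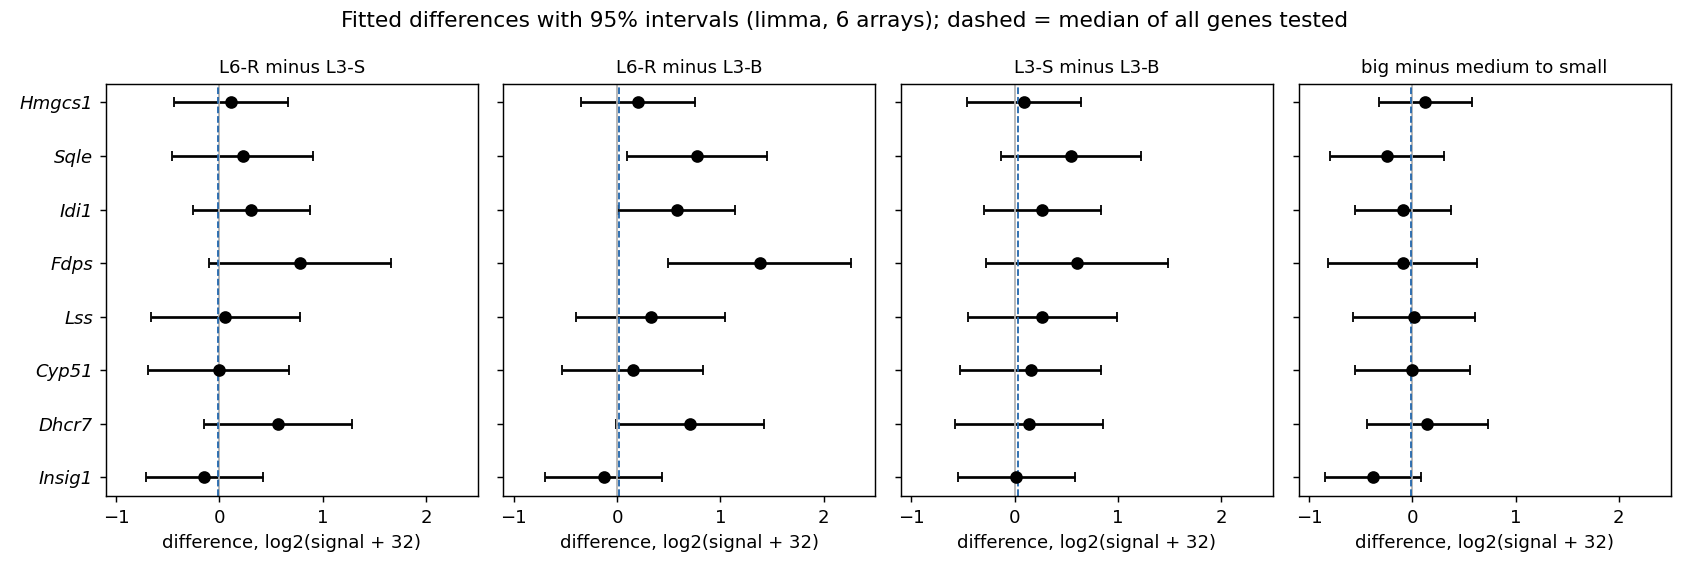
Fitted differences in log2(signal + 32) (x axis) of the 8 genes (rows) with 95% intervals from limma over 6 arrays, in 4 comparisons; the dashed line is the median of all genes tested. In L6-R minus L3-B the intervals of Fdps (0.50 to 2.27), Sqle (0.09 to 1.45) and Idi1 (0.01 to 1.14) lie above 0 before adjustment for multiple tests, and in the other 3 panels every interval covers 0.

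The arrays of L6-R lay wholly above those of L3-B for 4 of the 8 genes, Sqle, Idi1, Fdps and Dhcr7, where 25.8% of all genes tested showed this and 24.1% lay wholly below. The same 4 genes lay wholly above in L6-R against L3-S, where 25.3% of genes did and 27.3% lay below. In L3-S against L3-B, Sqle was wholly above, 1 of 8, where 22.4% of genes were above and 16.1% below. None of the 8 lay wholly below in any of these. With every gene centred on its own mean over the arrays, the 8 averaged 0.33 and 0.16 log2 in big and medium to small L6-R neurons, -0.09 and 0.10 in L3-S, and -0.34 and -0.17 in L3-B. By code means of log2 values, 6 of the 8 (Hmgcs1, Sqle, Idi1, Fdps, Lss and Dhcr7) ran in the order L6-R, L3-S, L3-B. No neighbours in that order differed past the threshold, and the share of all genes in that order was not counted. Some steps were small: L6-R less L3-S was 0.06 for Lss and 0.11 for Hmgcs1, with SE of 0.32 and 0.24.

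Over the 6 arrays, on each of which the genes share 1 RNA pool and 1 scaling, the highest correlations between enzymes fell in 2 sets. These sets were read off the same values, and the share of all gene pairs with such r was not counted. Fdps correlated with Sqle (Pearson r = 0.94) and Idi1 (0.88), and Sqle with Idi1 (0.86). Hmgcs1 correlated with Dhcr7 (0.93) and Lss (0.84) but not with Sqle (-0.00), and Lss with Dhcr7 (0.77). The sets were not sharply apart, since Idi1 also correlated with Dhcr7 (0.66). Cyp51 had r of 0.71 with Sqle, 0.66 with Fdps and 0.65 with Idi1. Insig1 had a negative r with 6 of the 7 enzymes, from -0.57 with Cyp51 to -0.18 with Sqle, and 0.13 with Lss. The 5 other tested genes whose levels followed the mean of the 8 most closely over the 6 arrays were Zfp386 (r = 0.996), Scg2 (0.988), Nol4 (0.987), Socs2 (0.987) and Tmtc4 (0.985). Scg2, the granule protein secretogranin II, read 2433 and 2150 in L6-R, 1463 and 2010 in L3-S, and 1045 and 1224 in L3-B. Tmtc4 read 1351 and 1046 in L6-R, 534 and 679 in L3-S, and 259 and 357 in L3-B, with no overlap between codes. These r values over 6 arrays are a description of the arrays.

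Between size classes, 0 of the 8 genes passed, and the smallest adjusted p over all genes was 0.998. Insig1 had the largest fitted value of the 8, at -0.38 (95% interval -0.84 to 0.08), and read lower in big than in medium to small neurons in 3 of 3 codes, by -0.77 in L6-R, -0.29 in L3-S and -0.08 in L3-B. The enzymes had no common order. Fdps was higher in big neurons of L6-R (0.46) and L3-S (0.43) and lower in those of L3-B (-1.17). Sqle was at 0.16, 0.03 and -0.93 in the same order, and Dhcr7 at 0.42, -0.61 and 0.62. The 12 other synthesis enzymes tested had a median of -0.27 in big against medium to small neurons (all genes -0.02), with 11 of 12 below 0 and none past the threshold. That median was -0.09 within L6-R, -0.12 within L3-S and -0.66 within L3-B. Below 0 were 7, 8 and 9 of the 12 in the same order, beside 4726, 4729 and 4739 of the 9097 genes tested. The Actb ratios, big pool first, were 8.31 and 8.42 in L6-R, 5.42 and 12.0 in L3-S, and 13.9 and 3.73 in L3-B. Their part in these medians was not tested.

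**Figure D3:**
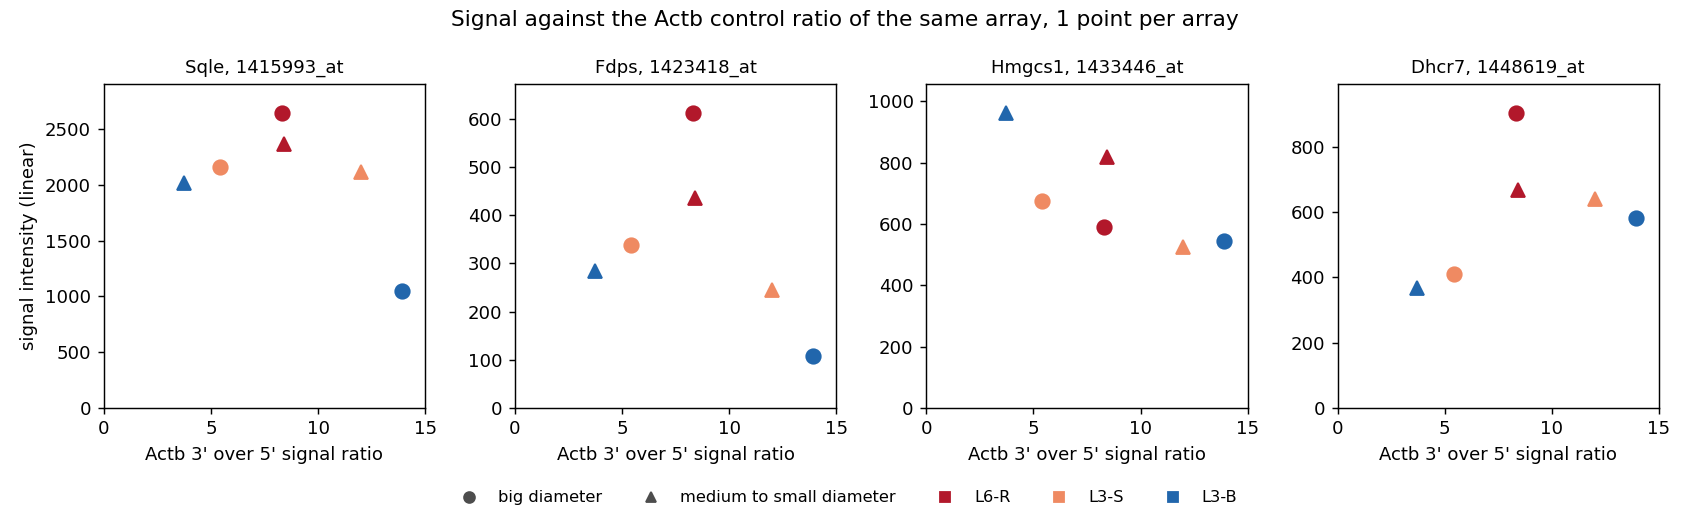
Linear signal intensity (y axis, from 0) of 4 probe sets against the 3' to 5' signal ratio of the Actb control (x axis), 1 point per array. Sqle and Fdps are lowest in the array with the highest ratio (13.9). The Hmgcs1 probe set 1433446_at is highest, at 961, in the array with the lowest ratio (3.73). The leading Hmgcs1 probe set (1433443_a_at), not drawn here, is lowest in that same array, at 9485. The 2 L6-R arrays, at 8.31 and 8.42, hold the highest Dhcr7 signals.

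Of the 8 genes, Sqle, Idi1, Fdps and Cyp51 had their lowest signal in the big L3-B pool, at the highest Actb ratio. Hmgcs1, Lss and Dhcr7 had theirs in the medium to small L3-B pool, at the lowest ratio, and Insig1 had its lowest in the big L6-R pool. With the log2 Actb ratio as a covariate, which leaves 1 residual degree of freedom, the difference in L6-R against L3-B was 1.50 for Fdps (limma adjusted p = 0.000141) and 0.85 for Sqle (adjusted p = 0.0129), and that in L6-R against L3-S was 0.81 for Fdps (adjusted p = 0.0282). In the same fit 17.5% of all genes tested passed in L6-R against L3-B and 10.9% in L6-R against L3-S, both above the shares without the covariate. The 2 L6-R pools had nearly the same ratio, 8.31 and 8.42. Between them, big against medium to small neurons read 0.60 for Cyp51, 0.46 for Fdps and -0.77 for Insig1, with 1 array each and no test.

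Lists of related genes place the 8 in their pathway. Of 16 other cholesterol synthesis enzymes, 12 were tested, and 0 passed in any comparison. Their medians were 0.22 in L6-R against L3-B, -0.03 in L6-R against L3-S and 0.18 in L3-S against L3-B. Hsd17b7, a sterol ketone reductase, had the lowest values, -0.43 (limma adjusted p = 0.340) in L6-R against L3-B and -0.59 (adjusted p = 0.265) in L6-R against L3-S, whereas Msmo1, the C4-methyl sterol oxidase, was at 0.47 (adjusted p = 0.358) and 0.29 (adjusted p = 0.660), and Mvd, the last enzyme of the mevalonate arm, at 0.43 (adjusted p = 0.434) and 0.32 (adjusted p = 0.642). Of 12 listed genes of SREBP processing and sterol uptake, 10 were tested and 0 passed, with medians of 0.24 in L6-R against L3-B, -0.06 in L6-R against L3-S and 0.17 in L3-S against L3-B. Srebf1, which encodes SREBP-1, the form tied more to fatty acid synthesis, read 424 and 395 in L6-R, 319 and 376 in L3-S, and 286 and 210 in L3-B, a difference of 0.67 ± 0.24 in L6-R against L3-B (SE; adjusted p = 0.151). The leading probe set of Srebf2, which encodes SREBP-2, read 83.1 and 39.1 in L6-R, 61.4 and 69.9 in L3-S, and 14.8 and 164 in L3-B, a spread within L3-B that covered every other array. Mbtps2, a protease that frees SREBPs, was at -0.52 (adjusted p = 0.227) in L6-R against L3-B, and Insig2, the relative of Insig1, at -0.54 (adjusted p = 0.307).

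Genes past the threshold were found in the lists of fatty acid synthesis and sterol efflux. Of 11 fatty acid synthesis genes tested, 2 rose in L6-R against L3-B, where 4.66% of all genes tested did. In L6-R against L3-S, L3-S against L3-B and by size 0 of the 11 passed, where 3.18%, 1.02% and 0% of genes did. The list's medians were 0.51 in L6-R against L3-B, 0.32 in L6-R against L3-S and 0.23 in L3-S against L3-B. Fasn, fatty acid synthase, read 1677 and 1535 in L6-R, 792 and 1070 in L3-S, and 693 and 612 in L3-B. It rose by 1.26 ± 0.24 in L6-R against L3-B (SE; limma adjusted p = 0.0171). It no longer passed when the medium to small L3-B pool was left out (adjusted p = 0.0540), nor when either L6-R pool was (0.173 for big, 0.0658 for medium to small). Fads2, the delta-6 desaturase, read 150 and 246 in L6-R, 79.3 and 155 in L3-S, and 34.1 and 69.5 in L3-B, and rose by 1.46 ± 0.22 (SE; adjusted p = 0.00535). The mean of its 3 probe sets gave 0.57 (adjusted p = 0.184). Both genes were higher in L6-R than L3-B within each size class.

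Of the 5 sterol efflux and turnover genes tested, out of 10 listed, Abca1 rose in L6-R against L3-S and Apoe rose in both DiI codes against L3-B. Among all genes tested, 1.26% rose in L6-R against L3-S, 4.66% in L6-R against L3-B and 0.923% in L3-S against L3-B. Abca1, the cholesterol exporter, read 1763 and 1626 in L6-R, 800 and 587 in L3-S, and 1683 and 1511 in L3-B. The L3-S arrays were low and the other 4 alike. The difference in L6-R against L3-S was 1.27 ± 0.22 (SE; limma adjusted p = 0.0218), and it lost the call in 6 of 19 alternatives, among them the mean of its 3 probe sets (0.52), 2 of which were near or under background. These 6 include the fits without the medium to small L3-S pool (1.12), without the big L6-R pool (1.35) and without the medium to small L6-R pool (1.18). Apoe, the carrier of lipid between cells, read 2394 and 5224 in L6-R, 2764 and 3745 in L3-S, and 540 and 913 in L3-B. It rose by 2.28 ± 0.25 in L6-R against L3-B (SE; adjusted p = 0.0013) and by 2.14 ± 0.25 in L3-S against L3-B (adjusted p = 0.00938; 0.0531 when no filter on low genes was set). Apoe is also a glial marker. In L6-R against L3-B, where 4.66% of all genes rose, 4 of 9 glial markers tested did (Apoe, Mbp, Fabp7 and Sox10). So did 3 of 4 of connective tissue and vessels (Col1a2, Dcn and Rgs5). In L3-S against L3-B 1 of each rose (Apoe and Rgs5), beside 0.923% of all genes. Of the 12 sensory neuron markers 1 rose in L6-R against L3-B, beside the same 4.66%, and 0 passed in L3-S against L3-B, beside 1.02%. In L6-R against L3-B the median was 0.38 for neuron markers, 1.53 for glial markers and 1.43 for connective tissue and vessels, beside 0.45 for the 8 genes. The part of these cells in the differences of the lipid genes was not tested, and in a pool a change in the number of cells of a type and in the RNA per cell cannot be told apart.

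**Figure D4:**
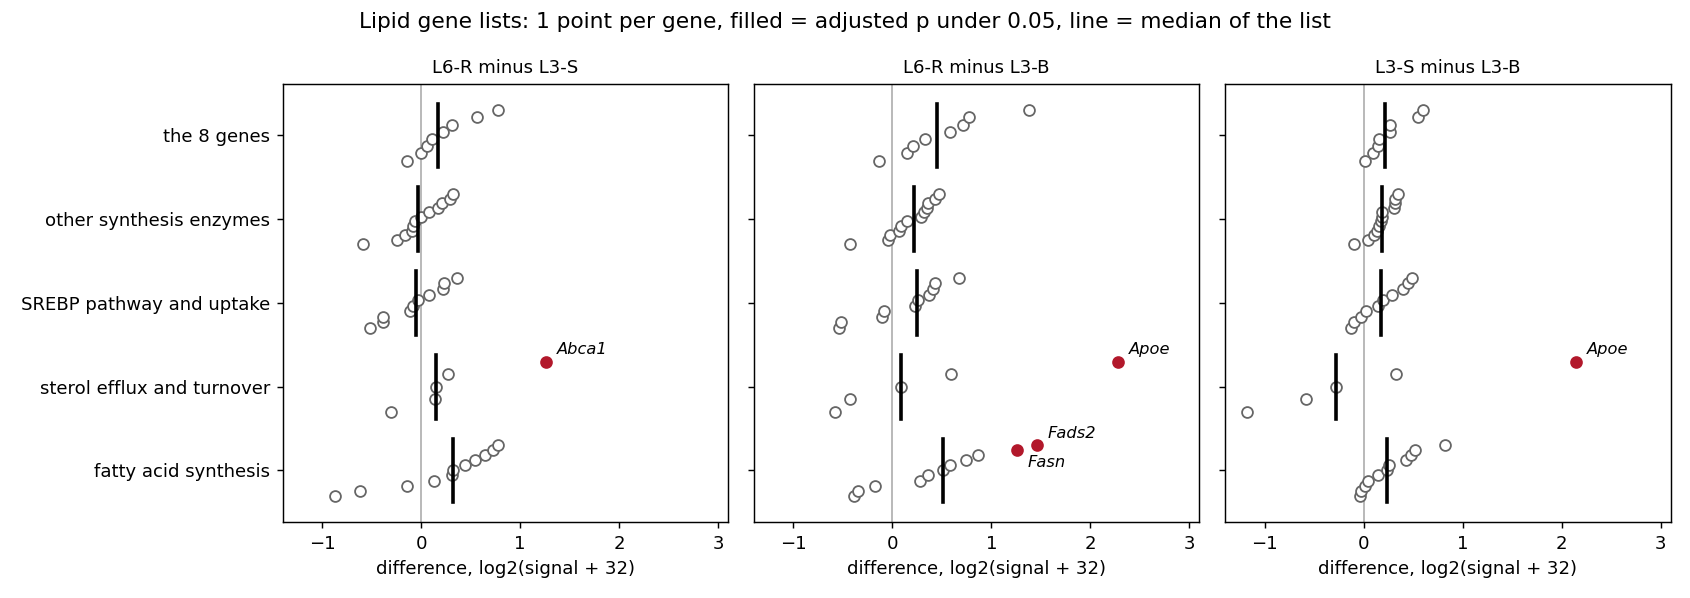
Fitted differences in log2(signal + 32) (x axis) of the 8 genes and of 4 lists of related lipid genes (rows) in the 3 comparisons of codes; 1 point per gene, filled where the adjusted p is under 0.05, with the list's median as a line. Abca1 (1.27), Apoe (2.28 and 2.14), Fads2 (1.46) and Fasn (1.26) are the filled points, and the medians of the 8 genes are 0.17, 0.45 and 0.21 from left to right.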

How the data were processed

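Total RNA was isolated with a picopure kit, per the labels' protocols. The deposited table holds the authors' linear signal intensity for 45037 probe sets and 64 control probe sets. Trimming 2% of values at each end left a mean of 150 on every array, so no further normalization was applied; the summary method is not given in the sources used here. Probe sets were named from the platform annotation (34945 with 1 symbol, 932 with several, 9160 with none), and 0 symbols changed against a newer gene table. A gene's leading probe set, highest by mean log2(signal + 32), stood for it, and the upper 50% of genes (9097) were tested. R 4.3.3 with limma 3.58.1 fitted all 6 arrays with terms for code and size class (lmFit, eBayes; 2 residual and 6.46 prior degrees of freedom; two-sided). The fit was tested on simulated data, but no result of that test is given here.

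The 8 genes, the lists and the tests were chosen with earlier results of these data known. Named genes were the 8, and from each list of related genes those past the threshold or else up to 4 with the smallest p; Srebf2 was added after its values were seen, and not every such gene is printed. Markers are given as sums and counts. Some listed genes were not analysed here. Alternatives were other pseudocounts, filters, normalization and probe set rules, other fits, and leaving out each array. Promoter windows are from RefSeq, GRCm38.p6; Sqle and Fdps are named only.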

Additional observations from a re-analysis of the deposited data

Results flagged for a closer look

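For 3 enzymes the difference between big and medium to small neurons had opposite signs in 2 codes, by at least 0.5 log2 in each. These pairs have 1 array per code and size class, and the difference was not tested. Lss was at -0.58 among L3-S pools and 0.74 among L3-B pools, a gap of 1.32. Dhcr7 was at -0.61 among L3-S pools and 0.62 among L3-B pools, a gap of 1.23. Cyp51 was at 0.60 in L6-R and -0.60 in L3-B, a gap of 1.20. The Actb ratio was 8.31 for the big and 8.42 for the medium to small L6-R pool. The L3-S pools had ratios of 5.42 and 12.0, and the L3-B pools 13.9 and 3.73, big first. The part of these ratios in the gaps was not tested.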

How the results depend on the processing

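Fdps and Sqle decide the counts of genes past the threshold among the 8. In L6-R against L3-B the count was 0 as reported (683 of 9097 genes), 1 with array weights (Fdps, adjusted p = 0.0438; 721 genes), 1 with only the arrays compared (Fdps, 0.00719; 995), 1 without the size class (Fdps, 0.0472; 786) and 2 with the Actb ratio as covariate (1590). Leaving out 1 array gave 0 to 2: 2 without the medium to small L3-B pool (684 genes), 1 without either L3-S pool (995), 1 without the medium to small L6-R pool (Fdps 1.80, adjusted p = 0.0348; 356), and 0 without the big L3-B pool or the big L6-R pool (Fdps 0.97, adjusted p = 0.437). In L6-R against L3-S the covariate gave 1 in place of 0 (994 genes in place of 289). In L3-S against L3-B leaving out 1 array gave 0 to 1, where Fdps passed at 1.41 (adjusted p = 0.0495; 89 genes) without the medium to small L3-B pool and was at -0.21 without the big one. Fdps, Sqle, Idi1, Dhcr7 and Hmgcs1 stayed above 0 in L6-R against L3-B in all 19 alternatives, with lowest values of 0.57, 0.26, 0.27, 0.35 and 0.02. Many alternatives, such as other filters and array weights, returned the main estimate, so its sign could not change there. The fit to only the arrays compared and those without either L3-S pool gave the same values and count once. Over all genes the counts ranged from 107 to 994 around 289 (L6-R against L3-S), 299 to 1590 around 683 (L6-R against L3-B), 14 to 512 around 93 (L3-S against L3-B) and 0 to 2 around 0 (size). Values near 0 changed sign. In L6-R against L3-S, averaging all probe sets of each gene gave -0.023 for Lss and 0.12 for Cyp51, and the covariate 0.0070 for Cyp51. In L3-S against L3-B, Hmgcs1 was at -0.012 with all probe sets averaged, and Insig1 at -0.010 after quantile normalization and -0.0010 with the covariate. Leaving out 1 array in L6-R against L3-S gave -0.15 to 0.38 for Hmgcs1, -0.077 to 0.53 for Sqle, -0.39 to 0.51 for Lss, -0.45 to 0.44 for Cyp51 and -0.44 to 0.15 for Insig1. In L6-R against L3-B it gave -0.21 to 0.87 for Lss, -0.30 to 0.60 for Cyp51 and -0.43 to 0.16 for Insig1. For L3-S against L3-B the ranges were -0.17 to 0.36 for Hmgcs1, -0.21 to 1.41 for Fdps, -0.27 to 0.81 for Lss, -0.30 to 0.61 for Cyp51, -0.42 to 0.71 for Dhcr7 and -0.21 to 0.24 for Insig1. Between size classes every one of the 8 but Insig1 changed sign in at least 1 alternative. With 1 array left out, a code rests on its 1 remaining array; the cause of the other shifts was not tested. Insig1 and Lss were outside the upper 25% of genes and have 18 alternatives. Codes were compared within size class by the fit itself, so no further pairing was added. Signals near 32, as for Lss and Fads2, limit what can be resolved.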
